A study of Capra hircus with 6 samples.

Results

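The genes described here are the relatives of BPIFC that share the bactericidal permeability-increasing protein (BPI) fold, with BPIFC itself, and the paraoxonases. They are 7 of the 28907 rows of a table of read counts per gene, picked by symbol: BPIFC, BPI, LBP and PLTP of the BPI fold, and PON1, PON2 and PON3. BPIFC and PON1 were known from the same counts to differ between the groups when the genes were picked. The levels and fold changes of all 7 are therefore descriptions, and so is the side of the threshold on which each fell in the fit across all genes, which supports nothing here.

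The counts come from the medio-basal hypothalamus of adult Alpine goats (Capra hircus), the base of the brain with the arcuate nucleus and median eminence. Goats of the January follicular phase, when cycles run and a follicle matures (5 goats), were set against goats of mid-May anestrus, when cycles have stopped for the season (8 goats). Each of the 2 libraries of a group is a random equimolar mix of RNA from that group's goats, and how many goats entered a mix is not given in the sources used here. Any spread between libraries is therefore a spread between pools, which may share goats, and season and ovarian state differ together between the groups. A luteal group (5 goats) was not analysed here.

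Library totals ran from 14553821 to 25292678 counts. Levels are given in counts relative to the scaled library total (CPM), in which 1 count is worth 0.0394 to 0.0701 CPM. Summed levels of 9 matched neuron markers were 3509 and 3934 CPM in the follicular pools, against 3172 and 2783 CPM in the anestrus pools, and those of 9 matched astrocyte markers were 9862 and 10857 CPM against 6139 and 6251 CPM, so markers of brain tissue were present throughout. CRYM, a marker of tanycytes in this part of the hypothalamus, was at 329 and 274 CPM against 334 and 318 CPM, while RAX, another one, was low, at 1.10 and 0.232 CPM against 2.87 and 0.555 CPM. Markers of the pituitary and pars tuberalis, which lie against the median eminence, were also present in every pool.

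Proteins of the BPI fold hold a lipid in an elongated, boomerang-shaped barrel. BPI is stored in granules of neutrophils and binds the lipopolysaccharide of bacteria, LBP carries lipopolysaccharide in blood to the receptor CD14, and PLTP moves phospholipids between lipoproteins. BPIFC is named for this fold, and its own function is little described. Paraoxonases are esterases and lactonases: PON1 and PON3 circulate on high-density lipoprotein, and PON2 stays within cells, bound to membranes. PON1 is named for its hydrolysis of paraoxon, an organophosphate.

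BPIFC was nearly undetected in the follicular phase and plainly present in anestrus. Its counts were 13 and 3 in follicular pools 1 and 2, against 354 and 588 in anestrus pools 1 and 2. As levels these are 0.512 and 0.174 CPM in the follicular pools, against 24.8 and 32.6 CPM in the anestrus pools. The follicular values lie far below both anestrus values, and the groups do not overlap. BPIFC averaged 0.343 ± 0.239 CPM in follicular pools and 28.7 ± 5.54 CPM in anestrus pools (SD, n = 2 pools each), and its fitted log2 fold change, follicular minus anestrus, was -6.27 ± 0.44 (SE). In tissue pools, fewer cells that make a transcript and less of it per cell cannot be told apart.

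The few follicular counts set the precision of that fold. The exact 95% Poisson interval was 0.272 to 0.875 CPM in follicular pool 1 and 0.0359 to 0.509 CPM in follicular pool 2, so these pools overlapped within counting error. In the anestrus pools the intervals were 22.3 to 27.5 CPM and 30.1 to 35.4 CPM, which did not overlap each other. From the sums of 16 follicular and 942 anestrus counts, the ratio of anestrus over follicular was 77.7, with an exact 95% interval of 47.6 to 137. These intervals cover counting error only. Leaving out 1 pool at a time moved the log2 fold change from -7.29 to -5.79. The first came without follicular pool 1, a fit that rests on the 3 counts of the other follicular pool.

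BPI, the neutrophil protein that gave the fold its name, was close to the limit of detection. It had 2 counts in each follicular pool, against 6 and 9 counts in anestrus pools 1 and 2, or 0.0787 and 0.116 CPM against 0.421 and 0.500 CPM. The ratio of anestrus over follicular was 4.95, from sums of 4 follicular and 15 anestrus counts. Its exact 95% interval, 1.58 to 20.5, covers counting error only and not the spread between pools. BPI did not pass the count filter. Without that filter it had a log2 fold change of -2.20 ± 1.23 in edgeR's fit.

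LBP, the plasma carrier of lipopolysaccharide, had 1 and 0 counts in follicular pools 1 and 2, against 0 and 2 counts in anestrus pools 1 and 2. It also did not pass the filter, and no fold is given for it. A count of 0 allows up to 3 counts at a 1-sided 95% level, or 0.174 CPM in follicular pool 2 and 0.210 CPM in anestrus pool 1. The upper ends of the 2-sided exact Poisson intervals used for BPIFC would be 0.214 and 0.259 CPM.

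PLTP, the phospholipid transfer protein of plasma and cerebrospinal fluid, was well covered in every pool and had the opposite sign to BPIFC. Its levels were 154 and 135 CPM in follicular pools 1 and 2, against 137 and 116 CPM in anestrus pools 1 and 2. The lower follicular pool lies just below the higher anestrus pool, so the groups overlap. PLTP averaged 144 ± 13.5 CPM in follicular pools and 127 ± 14.9 CPM in anestrus pools (SD, n = 2 pools each), with a log2 fold change of 0.19 ± 0.17 (SE). PLTP overlaps CTSA, the lysosomal protein cathepsin A, in RefSeq's ARS1.2 gene table. Whether the authors' counting used strand is not given in the sources used here. Reads from the shared stretch may therefore have been counted to either gene or left out of both.

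PON1, the serum paraoxonase, was lower in the follicular phase. Its counts were 279 and 235 in follicular pools 1 and 2, against 645 and 753 in anestrus pools 1 and 2. Scaled, that is 11.0 and 13.7 CPM in the follicular pools, against 45.2 and 41.8 CPM in the anestrus pools. The groups are 28.2 CPM apart at their closest, while pools of a group differ by a factor of 1.24 in the follicular phase and 1.08 in anestrus. PON1 averaged 12.3 ± 1.89 CPM in follicular pools and 43.5 ± 2.41 CPM in anestrus pools (SD, n = 2 pools each), which is a 3.54-fold lower level and a log2 fold change of -1.82 ± 0.23 (SE).

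PON3, the other paraoxonase of high-density lipoprotein, had the same sign and a smaller difference. Its levels were 19.4 and 18.0 CPM in follicular pools 1 and 2, against 31.8 and 35.6 CPM in anestrus pools 1 and 2. Both follicular pools lie below both anestrus pools. PON3 averaged 18.7 ± 0.98 CPM in follicular pools and 33.7 ± 2.71 CPM in anestrus pools (SD, n = 2 pools each), with a log2 fold change of -0.85 ± 0.22 (SE).

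PON2, the intracellular paraoxonase, had levels of 94.8 and 107 CPM in follicular pools 1 and 2, against 149 and 109 CPM in anestrus pools 1 and 2. Follicular pool 2 and anestrus pool 2 are only 1.34 CPM apart, and anestrus pool 1 stands above the rest. PON2 averaged 101 ± 8.83 CPM in follicular pools and 129 ± 28.6 CPM in anestrus pools (SD, n = 2 pools each), with a log2 fold change of -0.35 ± 0.19 (SE). Without anestrus pool 1 that value was -0.11, and with anestrus pool 2 left out instead it was -0.52.

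**Figure D1:**
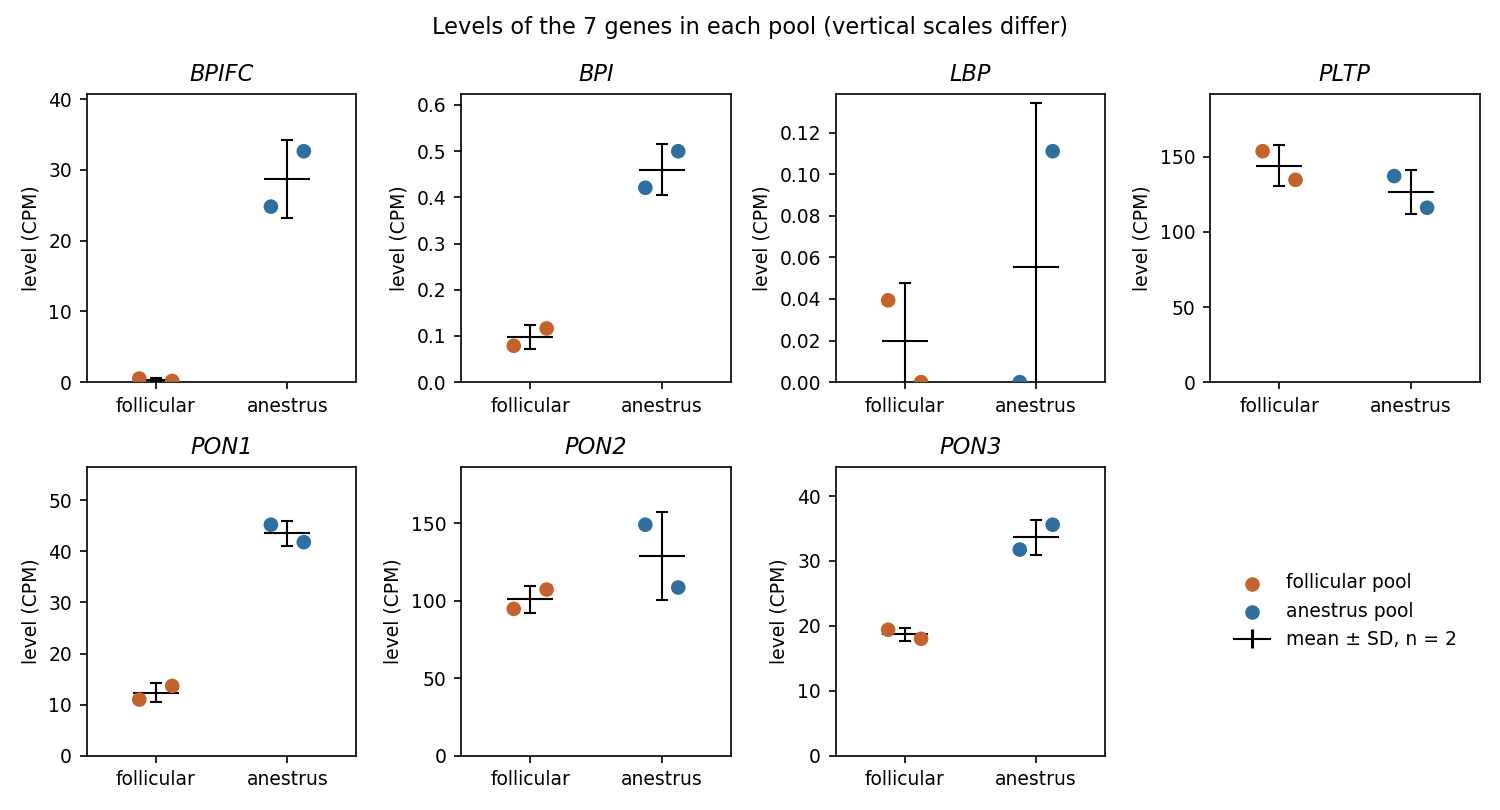
Level of each of the 7 genes in CPM (vertical axis, linear and different in each panel) in the follicular pools and the anestrus pools. Points are single pools and black marks are mean ± SD (n = 2 pools), with error bars of LBP cut at 0. BPIFC is at 0.512 and 0.174 CPM in the follicular pools against 24.8 and 32.6 CPM in the anestrus pools, PON1 and PON3 also separate, and the PLTP groups overlap.

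In the fit across all 16756 genes that passed the filter, 2 of the 7 genes, BPIFC and PON1, passed an adjusted p of 0.05, both lower in the follicular phase. In the same fit 34 genes passed, 0.203% of those tested, of which 32 (0.191%) were lower in the follicular phase. An unadjusted p under 0.05 was reached by 1432 of the 16756 genes. PLTP, PON2 and PON3 were tested and did not pass, and BPI and LBP were not tested. By size of log2 fold change, BPIFC stood at rank 3 and PON1 at rank 13 of those 34 genes. Among all genes tested, 38.3% had follicular and anestrus CPM without overlap, and among the 5 tested members this held for BPIFC, PON1, PON2 and PON3. Since BPIFC and PON1 were picked with this contrast known, nothing is read from these counts. PON1 was no longer past the threshold without follicular pool 1 (log2 fold change -1.65), whereas PON3 passed in 1 of 12 alternatives, without anestrus pool 1 (-0.93).

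Within a pool, the counts of related genes can be set against each other without any scaling between libraries. Counts are not corrected for transcript length, so a share says nothing of which gene has more transcripts, but the share of 1 gene can be followed from pool to pool. PON1 held 8.77% (exact 95% binomial interval 7.81 to 9.81%) and 9.83% (8.66 to 11.1%) of the paraoxonase counts in follicular pools 1 and 2. It held 20.0% (18.6 to 21.4%) and 22.5% (21.1 to 23.9%) in anestrus pools 1 and 2. These intervals, and those of the other shares, cover counting error only and not the spread between pools, and PON1 was picked for its difference.

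PON2 filled most of the rest, with 75.7% and 77.2% in follicular pools 1 and 2, against 66.0% and 58.4% in anestrus pools 1 and 2. PON3 held 15.5% and 13.0% in the follicular pools, against 14.0% and 19.1% in the anestrus pools, so its share overlapped between groups although its level in CPM did not. The PON1 count was 0.566 and 0.758 times the PON3 count in follicular pools 1 and 2, against 1.42 and 1.17 times in anestrus pools 1 and 2. PON1 thus had fewer counts than its neighbour in both follicular pools and more in both anestrus pools. The ratio of PON3 to PON2 counts was 0.205 and 0.168 in the follicular pools, against 0.213 and 0.328 in the anestrus pools, and only the last stands apart.

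Summed over the 3 paraoxonases, the level was 125 and 139 CPM in follicular pools 1 and 2, against 226 and 186 CPM in anestrus pools 1 and 2. The mean follicular sum was thus 74.0 CPM below the anestrus one, a gap to which PON1 contributed 31.2 CPM, PON2 27.8 CPM and PON3 15.0 CPM. With 1 pool left out at a time, computed after the values were seen, the part of PON2 ran from 7.58 CPM (without anestrus pool 1) to 48.1 CPM (without anestrus pool 2), that of PON1 from 29.5 to 32.9 CPM and that of PON3 from 13.0 to 16.9 CPM. The part of PON1 was 42.2% of the gap with all pools, and 34.98 to 54.7% with 1 left out.

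In the BPI fold genes, PLTP held 99.6% and 99.8% of the counts in follicular pools 1 and 2, against 84.5% and 77.7% in anestrus pools 1 and 2. BPIFC held 0.331% (0.177 to 0.566%) and 0.129% (0.0266 to 0.377%) in the follicular pools, against 15.3% (13.8 to 16.8%) and 21.9% (20.3 to 23.5%) in the anestrus pools. Their summed level, at 154 and 135 CPM in the follicular pools, against 162 and 149 CPM in the anestrus pools, overlapped between groups. The sum holds the opposite signs of BPIFC and PLTP.

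**Figure D2:**
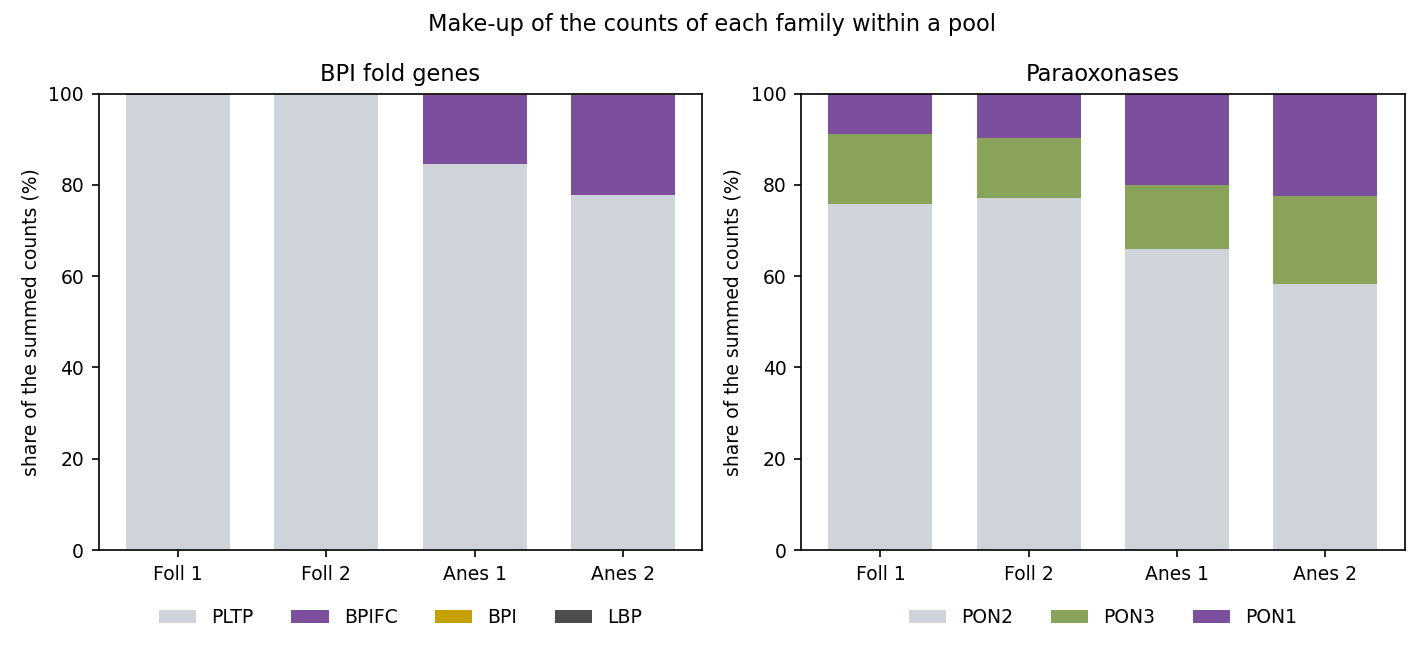
Share of the summed counts (%, vertical axis) held by each BPI fold gene (left) and each paraoxonase (right) in follicular pools 1 and 2 and anestrus pools 1 and 2. BPIFC holds 0.331% and 0.129% in the follicular pools against 15.3% and 21.9% in the anestrus pools, and PON1 holds 8.77% and 9.83% against 20.0% and 22.5%. BPI and LBP are too few to be seen.

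In the ARS1.2 gene table PON2, PON3 and PON1 follow each other with no other tested protein-coding gene between them. How the counting treated reads that fit more than 1 of these related genes is not given in the sources used here. PON2 overlaps LOC108635858, which had at most 2 counts in any pool. The nearest tested genes around this cluster included PDK4, a kinase that restrains pyruvate dehydrogenase, ASB4, PPP1R9A, which encodes the actin-binding protein neurabin, and PEG10, an imprinted gene derived from a retrotransposon. Of the 6 nearest tested protein-coding genes around PON1 that are not paraoxonases, 0 passed in edgeR, DESeq2 or limma-voom and 1 had an unadjusted p under 0.05, with log2 fold changes from -0.88 to 0.22 and adjusted p from 0.576 upwards. The lowest was ASB4, at -0.88 ± 0.39, with counts of 70 and 35 in follicular pools against 66 and 77 in anestrus pools. BPIFC lies between RTCB, a ligase of transfer RNA splicing, and FBXO7, a subunit of ubiquitin ligases. Of its 8 nearest tested genes, 0 passed in edgeR, DESeq2 or limma-voom and 0 had an unadjusted p under 0.05, with log2 fold changes from -0.18 to 0.72, and no listed gene overlapped BPIFC. RTCB was at -0.03 ± 0.16 and FBXO7 at -0.18 ± 0.16. BPI and LBP are neighbours of each other and PLTP lies elsewhere.

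The genes most like BPIFC in pattern were found by Euclidean distance between log2 CPM profiles centred on each gene's mean over the 4 libraries. With 4 libraries this describes the profiles and carries no test. Only the 13975 other tested genes with a symbol not starting with LOC were ranked. Any LOC genes that lie nearer are therefore not listed. Nearest was FAM150B (ALKAL2), whose product activates the receptor tyrosine kinase ALK, at a distance of 1.54, then TSHB, the beta subunit of thyrotropin, at 1.87. GLYATL3, of the glycine acyltransferase family, at 3.04, EZH2, the histone H3 lysine 27 methyltransferase, at 3.18, and TMEM252 at 3.32 followed. FAM150B had 2.36 and 2.44 CPM in follicular pools 1 and 2, against 65.5 and 75.6 CPM in anestrus pools 1 and 2. TSHB had 4.80 and 6.80 CPM in the follicular pools, against 1200 and 811 CPM in the anestrus pools, so TSHB and BPIFC differ in which anestrus pool is higher. Beyond TSHB the profiles are less close, and GLYATL3 rests on 0 and 1 counts in the follicular pools against 11 and 39 in the anestrus pools.

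Profiles were centred but not scaled, so a distance also depends on the size of the fold changes. Distances to BPIFC and to PON1 are therefore not read against each other. The genes nearest PON1, ranked in the same way, lay at smaller distances from it. They were MARVELD3, a protein of tight junctions, at a distance of 0.24, TLE6, of the Groucho corepressor family, at 0.32, and NMT2, which attaches myristate to proteins, at 0.36. STRC, the stereocilin of the inner ear, at 0.41 and APOC3, an apolipoprotein of triglyceride-rich particles and high-density lipoprotein, at 0.41 followed. NMT2 was the 1 gene of these 5 to pass (log2 fold change -1.52 ± 0.18, adjusted p = 0.0084, edgeR). It was lost without follicular pool 1. TLE6 passed in 7 of 12 alternatives and MARVELD3 in 3. APOC3 was hardly covered, with 4 and 2 counts in follicular pools 1 and 2 against 12 in each anestrus pool. PON1 lay at 1.04 from PON3, 1.51 from PON2 and 4.41 from BPIFC.

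**Figure D3:**
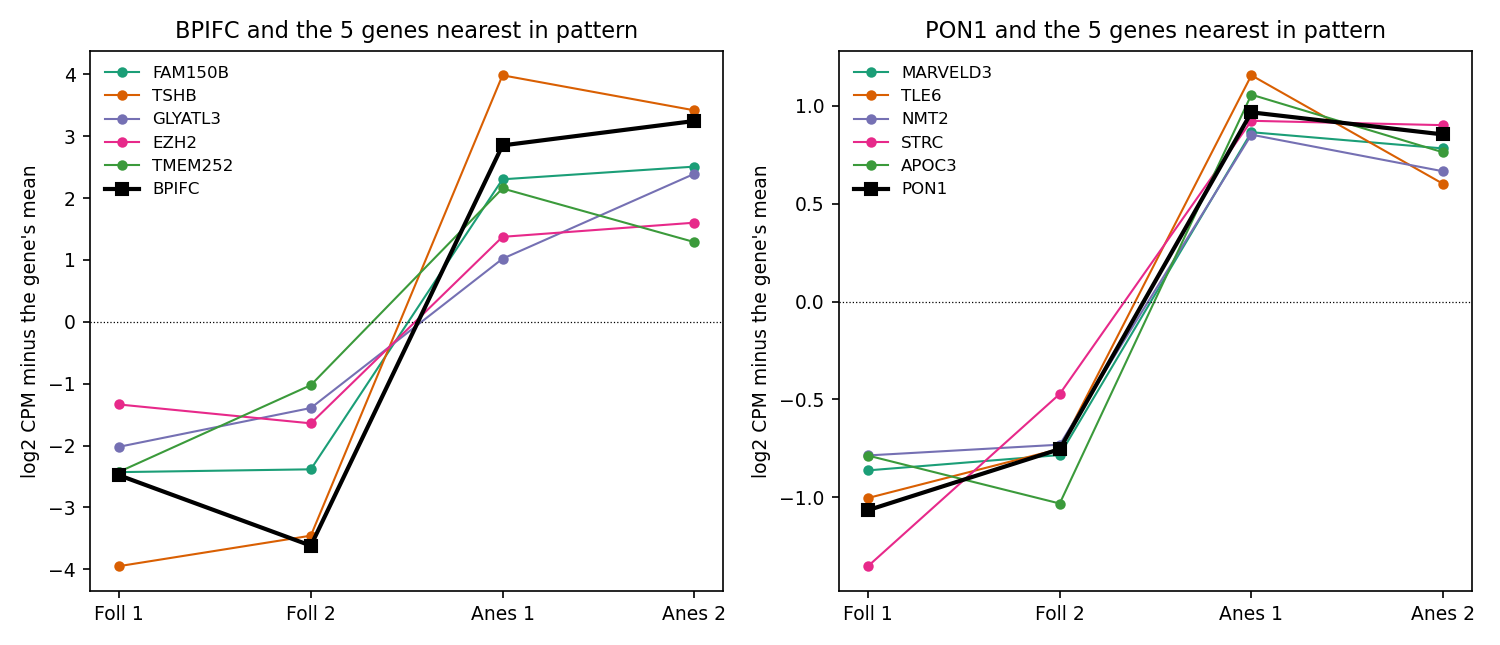
Log2 CPM minus the gene's mean over the 4 pools (vertical axis) for BPIFC (left, black squares) and PON1 (right, black squares) with the 5 genes nearest to each, in follicular pools 1 and 2 and anestrus pools 1 and 2. Lines only join the points of 1 gene. Genes with a LOC symbol were not ranked. Of the ranked genes, FAM150B and TSHB lie nearest to BPIFC, at distances of 1.54 and 1.87. The 5 genes of the right panel lie 0.24 to 0.41 from PON1.

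Markers of the pituitary and pars tuberalis were lower in the follicular pools in sum, as BPIFC and PON1 were. The 17 matched markers summed to 6108 and 4828 CPM in follicular pools 1 and 2, against 15839 and 13577 CPM in anestrus pools 1 and 2. Of the 16 tested, 3 were lower in the follicular phase (edgeR), 0 were higher and 13 did not pass, with a median log2 fold change of -0.93 beside 0.00 over all genes tested, and no matched marker was at 0 in all pools. By sign, 13 of the tested markers had a negative and 3 a positive log2 fold change. Among the 3 that passed were TSHB and CGA, the common alpha subunit of the pituitary glycoprotein hormones. Most of the sum was CGA, at 5232 and 4295 CPM in the follicular pools, against 13142 and 10309 CPM in the anestrus pools. The log2 fold change of CGA was -1.30 ± 0.18 (adjusted p = 0.0206, edgeR), and its call was lost without follicular pool 1. The part of these cells in the levels of BPIFC and PON1 was not tested.

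Set against TSHB within a pool, BPIFC had 107 and 25.6 counts per 1000 TSHB counts in follicular pools 1 and 2, against 20.7 and 40.3 in anestrus pools 1 and 2. These ratios overlap between groups. Set against CGA, BPIFC had 0.0978 and 0.0406 counts per 1000 in the follicular pools, against 1.89 and 3.17 in the anestrus pools, which do not overlap. PON1 had 2.099 and 3.18 counts per 1000 CGA counts in the follicular pools, against 3.44 and 4.06 in the anestrus pools. Set against TSHB, PON1 had 2287 and 2009 counts per 1000 in the follicular pools, against 37.7 and 51.6 in the anestrus pools, the opposite order. Set against GFAP, an astrocyte marker, BPIFC had 0.107 and 0.0361 counts per 1000 in the follicular pools, against 10.7 and 13.2 in the anestrus pools, and PON1 had 2.29 and 2.83 against 19.4 and 17.0. The ratios of PON1 thus depend on the marker it is set against. These markers themselves differed between the groups, with log2 fold changes of -7.45 (TSHB), -1.30 (CGA) and 1.01 (GFAP). The ratios restate those values beside -6.27 for BPIFC and -1.82 for PON1, and nothing is read from them about cell content.

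Neutrophils are a known source of BPI, liver of LBP and PON1, and, in humans, skin of BPIFC. Of 9 matched neutrophil markers, 1 was tested and did not pass, and their summed level was 3.03 and 3.20 CPM in the follicular pools, against 10.2 and 3.22 CPM in the anestrus pools. MPO, a granule enzyme of these cells, was at 0 in all 4 pools. S100A8 and S100A9, their abundant calcium-binding proteins, had 62 and 53 counts in anestrus pool 1 and at most 9 in any other pool. AZU1 and LCN2, of the same list, went the other way. AZU1 had 20 and 9 counts in the follicular pools against 3 and 5 in the anestrus pools, and LCN2 had 12 and 12 against 3 and 4. ELANE, LTF and CSF3R had at most 9 counts in any pool, and CXCR2, a chemokine receptor, had 16 to 26 counts in every pool. The part of such cells in the levels of the BPI fold genes was not tested. Of 9 matched liver markers, 4 were tested and 0 passed in edgeR, DESeq2 or limma-voom or had an unadjusted p under 0.05, summing to 409 and 235 CPM in the follicular pools, against 299 and 173 CPM in the anestrus pools. Much of the sum was TTR, the thyroxine carrier that the choroid plexus also makes, at 252 and 27.4 CPM against 61.1 and 17.7 CPM. ALB, which defines liver cells, was at 2.99 and 2.73 CPM in the follicular pools, against 1.96 and 2.39 CPM in the anestrus pools. Of 10 matched epidermal markers, 6 were tested and 0 passed in edgeR, DESeq2 or limma-voom, 1 having an unadjusted p under 0.05, with a median log2 fold change of -0.58 and sums of 32.9 and 39.1 CPM against 74.0 and 35.5 CPM. Of the 6 tested, 4 had a negative and 2 a positive log2 fold change. KRT5, a keratin of basal epithelium, was at 2.28 and 2.44 CPM in the follicular pools, against 12.3 and 4.16 CPM in the anestrus pools. KRT5 was lower in the follicular phase like BPIFC, but higher in anestrus pool 1, where BPIFC was the lower. KRT5 did not pass (log2 fold change -1.79 ± 0.50, adjusted p = 0.307, edgeR). KRT5 passed in 2 of 12 alternatives, and the part of such cells in the level of BPIFC was not tested.

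The other marker lists held 1 gene past the threshold in edgeR, GFAP. All 11 matched markers of meninges and fibroblasts were tested, 0 passed in edgeR or limma-voom and 1, DCN, in DESeq2, 4 had an unadjusted p under 0.05, 9 had a negative log2 fold change and the median was -0.26. Their summed level was 932 and 1051 CPM in the follicular pools, against 1524 and 1360 CPM in the anestrus pools, so it was lower in the follicular pools, as PON1 and PON3 were. Its part in their levels was not tested. The choroid plexus markers (11 tested, median 0.37), tanycyte and ependyma markers (11, -0.11), endothelial markers (10, 0.12) and the 1 red blood cell marker tested (AHSP, -1.63 ± 0.44) held 0 genes past the threshold in edgeR, DESeq2 or limma-voom. At an unadjusted p under 0.05 they held 1, 0, 1 and 1. Astrocyte markers had 1 of 9 past it, higher in the follicular phase (GFAP, log2 fold change 1.01 ± 0.15, adjusted p = 0.0316, edgeR, lost without follicular pool 1), and a median of 0.56. Oligodendrocyte markers (10 tested, median 0.79), neuron markers (9, 0.35) and microglia markers (12, 0.24) had 0 past it in edgeR and limma-voom, and 9, 3 and 1 at an unadjusted p under 0.05. DESeq2 called MOBP and MYRF of the oligodendrocyte markers and none of the neuron or microglia markers. All 40 tested markers of these 3 lists and of astrocytes had a positive log2 fold change, opposite to BPIFC and PON1, and their part in the levels of these genes was not tested.

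**Figure D4:**
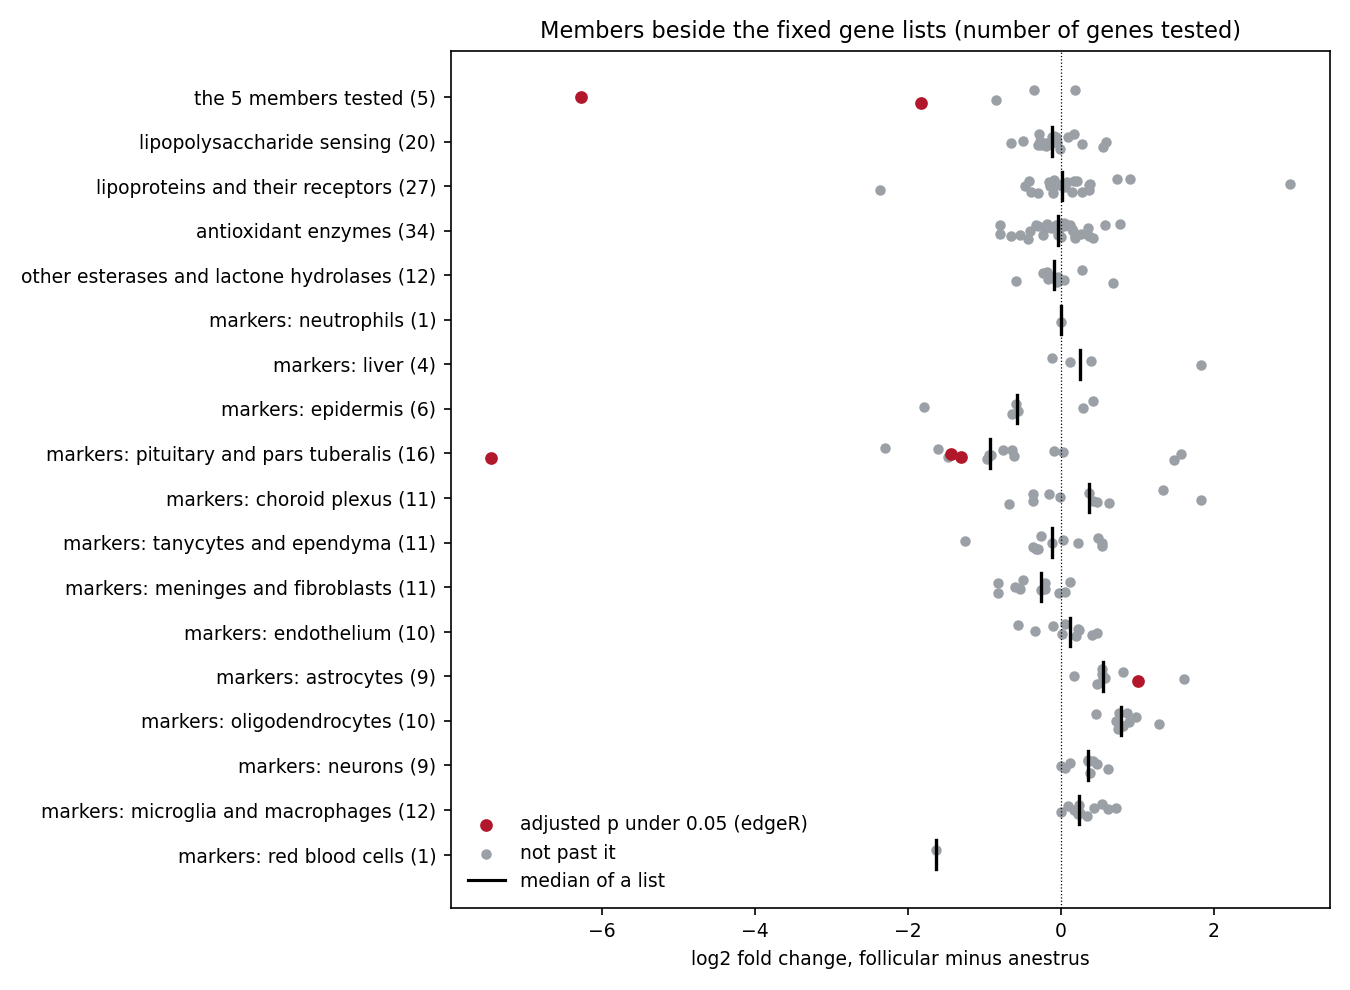
Log2 fold change, follicular minus anestrus (horizontal axis), of the 5 members tested and of each tested gene of the fixed lists (rows, number of genes in brackets). Red points passed an adjusted p of 0.05 in edgeR, grey points did not, and black ticks are list medians. BPIFC (-6.27) and PON1 (-1.82) lie left of every gene of the lipopolysaccharide, antioxidant and esterase lists, while the lipoprotein list reaches -2.37 (APOC3), left of PON1. BPIFC and PON1 were picked with this contrast known, so nothing is read from their place beside the lists.

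None of the tested genes of the pathways in which these proteins act passed in edgeR. Only 0.203% of all genes tested passed, so few or no calls fall in lists of this size and nothing is read from their absence. Counts at an unadjusted p under 0.05 stand beside 1432 of all 16756 genes tested. Of 10 listed other BPI fold genes, 8 were matched and 0 passed the count filter. Their summed level was 0.472 and 0.407 CPM in the follicular pools, against 1.19 and 0.555 CPM in the anestrus pools. Among the matched genes of the BPI fold, BPIFC and PLTP were therefore the 2 covered well enough to test. CETP and BPIFB5P were not matched to a row, so nothing is said of them.

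The genes of lipopolysaccharide sensing, in which BPI and LBP act, were all tested: 0 of 20 passed in edgeR, DESeq2 or limma-voom, 0 had an unadjusted p under 0.05, 15 had a negative and 5 a positive log2 fold change, and the median was -0.12. CD14, the receptor that takes lipopolysaccharide from LBP, was at 25.6 and 24.6 CPM in the follicular pools, against 31.3 and 26.2 CPM in the anestrus pools. TLR4, the signalling receptor, was at 5.23 and 4.59 CPM against 4.84 and 5.66 CPM. The genes of this list with the smallest p were TICAM2, an adaptor of TLR4 (-0.49 ± 0.27, adjusted p = 0.691, edgeR), and CD180, a homologue of TLR4 on B cells (0.59 ± 0.34, adjusted p = 0.718, edgeR).

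Of 27 tested genes of lipoproteins and their receptors, the particles that carry PLTP, PON1 and PON3, 0 passed in edgeR, DESeq2 or limma-voom, 3 had an unadjusted p under 0.05, 13 had a negative and 14 a positive log2 fold change, and the median was 0.02. APOA1, the main protein of high-density lipoprotein, was at 152 and 201 CPM in the follicular pools, against 231 and 151 CPM in the anestrus pools, which overlap. APOE, the main apolipoprotein of the brain, was at 857 and 502 CPM in the follicular pools, against 542 and 186 CPM in the anestrus pools, which overlap too. GPIHBP1, which holds lipoprotein lipase on capillaries, had the smallest p (2.99 ± 0.76, adjusted p = 0.244, edgeR), from 26 and 18 counts in the follicular pools against 2 in each anestrus pool. ABCG4, a cholesterol exporter of neurons and astrocytes, came next at 0.74 ± 0.22 (adjusted p = 0.32, edgeR).

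Among 34 tested antioxidant enzymes, 0 passed in edgeR, DESeq2 or limma-voom, 5 had an unadjusted p under 0.05, 19 had a negative and 15 a positive log2 fold change, and the median was -0.03. GPX8, a peroxidase of the endoplasmic reticulum, was at 28.7 and 34.0 CPM in the follicular pools against 61.3 and 47.7 CPM in the anestrus pools (-0.80 ± 0.21, adjusted p = 0.261, edgeR). PRDX4, the peroxiredoxin of the same compartment, was at -0.79 ± 0.23 (adjusted p = 0.307, edgeR). Both passed without anestrus pool 2 and without the count filter. Of 12 tested other esterases and lactone hydrolases, 0 passed in edgeR, DESeq2 or limma-voom, 1 had an unadjusted p under 0.05, 9 had a negative and 3 a positive log2 fold change, and the median was -0.09. BCHE, the butyrylcholinesterase that like PON1 hydrolyses esters in serum, was at 35.6 and 40.1 CPM in the follicular pools against 59.0 and 54.8 CPM in the anestrus pools (-0.59 ± 0.19, adjusted p = 0.353, edgeR). AFMID, a formamidase of tryptophan breakdown, was at 0.68 ± 0.44 (adjusted p = 0.757, edgeR).

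**Figure D5:**
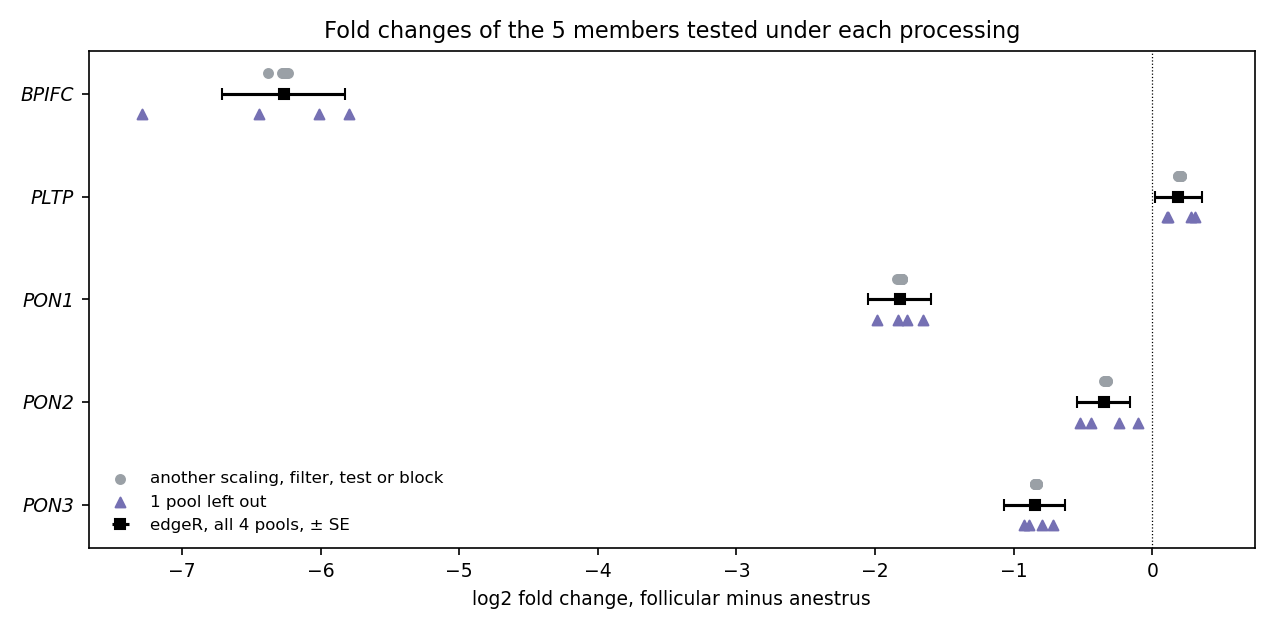
Log2 fold change, follicular minus anestrus (horizontal axis), of the 5 members tested: black squares are edgeR with all 4 pools ± SE, grey points another scaling, filter, test or block, and purple triangles fits with 1 pool left out. BPIFC runs from -7.29 to -5.79, PON1 from -1.99 to -1.65, PON3 from -0.93 to -0.72, PON2 from -0.52 to -0.11 and PLTP from 0.11 to 0.31, each on its own side of 0.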

How the data were processed

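The deposited values are whole-number read counts per gene, which the authors did not normalize, per the file headers and values. Per the labels' protocols, libraries were made with a stranded mRNA kit. The submitters' processing notes list featureCounts 2.0.0 and SAMtools 1.9, the mapping tools Bowtie2 2.3.5.1 and TopHat2 2.1.1, and FastQC and bcl2fastq 2.20. Build, strand setting and the handling of multiply mapped reads are not stated there, so no coordinates are printed. The anestrus pools carry opposite numbers in the titles and in the library names, of which the second were followed.

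Counts were filtered with filterByExpr (minimum count 10, minimum total 15) and scaled with TMM factors, and edgeR 4.0.16 (R 4.3.3) gave the tests (glmQLFit with robust estimation, glmQLFTest, 2 pools a group, Benjamini-Hochberg adjustment over 16756 genes). The SE is the size of the log2 fold change divided by the root of the F statistic. These steps were first tested on simulated counts. Alternatives were other scalings and filters, DESeq2 1.42.0, limma-voom (limma 3.58.1), no robust estimation, a replicate block and leaving out each pool. Shares have exact Clopper-Pearson intervals.

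The 7 genes and the 18 lists (5 of pathways, 13 of markers, 266 entries, 239 different genes matched) were chosen with earlier results of these data known. Genes named were the 7 members, and up to 4 called genes of a list or else the 2 with the smallest p. Of the marker genes only some are printed. The 5 genes nearest BPIFC and PON1, LOC symbols left out, were also named. The result of 1 gene is not reported here. Other genes, such as CD14, TLR4, APOA1, APOE, MPO and the neighbours, were named for their role or place after values were seen. RefSeq's ARS1.2 gene table gave synonyms and gene order and held 28873 of the 28907 identifiers.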

Additional observations from a re-analysis of the deposited data

How the results depend on the processing

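BPIFC and PLTP kept their sign and their side of the adjusted p of 0.05 in all 12 alternatives, as did PON2. PON1 kept its sign in all and its call in 11, being lost without follicular pool 1 (log2 fold change -1.65, range -1.99 to -1.65 over the fits that leave out 1 pool). PON3 kept its sign and passed in 1 alternative, without anestrus pool 1 (-0.93, range -0.93 to -0.72). Between 1 and 3 members passed when 1 pool was left out. The number of genes called, 34 with all pools, was 300 with no count filter, 143 in the DESeq2 Wald test, 90 with a replicate block, and 4 (without follicular pool 1) to 810 (without anestrus pool 1) when 1 pool was left out. Genes called in the fixed lists, 4 with all pools, numbered 21, 8 and 7 under those 3 settings and 1 to 36 when 1 pool was left out. The cause was not tested. Where 1 pool is left out, the lone pool of its group is assumed to vary like the pair of the other group. The replicate block used pool numbers that 2 pairs share in the library names only. Deviations of same-numbered pools correlated at r = 0.26 across genes. With 2 pools a group, the numbers of the titles give the same value with its sign turned by construction. With 2 pairs and labels that differ, the numbers are not taken to pair the pools. The PON1 and BPIFC shares were recomputed only without each pool, where the difference, follicular minus anestrus, ran from -13.2 to -10.7 and from -21.6 to -15.0 percentage points. Dividing counts by coding length was not run. The scalings tried moved the median of all genes by at most 0.0187 on the log2 scale. Depth limits BPI and LBP, which have no fitted value with the count filter.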
